A study of Mus musculus and Rattus norvegicus with 51 samples.

Results

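The proteasome is the barrel-shaped protease that degrades ubiquitin-tagged proteins in every cell. The genes described here are its constitutive subunits, together with their assembly chaperones, activators and inhibitor. They were chosen by symbol: every gene named Psma, Psmb, Psmc, Psmd, Psme, Psmf or Psmg plus a number, without the immunoproteasome genes Psmb8, Psmb9 and Psmb10, and with Nfe2l1 added. The rule itself used no measured value, but it was set with earlier results of these data known. It found 44 of the 17327 genes of the cell table, 46 of the 24421 genes of the table of fibrosis and resolution livers, and 46 of the 24982 genes of the table of CCl4 and MO livers, and 44 genes were listed in every table. A filter on low counts kept 42, 45 and 45 of them for testing. Psmb11, the thymus-specific beta subunit, was left out by it in every table, and was at 0 counts in every liver library. Psma8, the germ-cell alpha subunit, was left out in the cells. Psmg3 and Nfe2l1 of the rat cells were not analysed here.

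The 20S core of the proteasome is a stack of outer rings of alpha subunits, which gate the entry, and inner rings of beta subunits, of which Psmb5, Psmb6 and Psmb7 carry the constitutive protease sites. The 19S regulatory particle caps the core: its base holds the ATPases that unfold substrates (Psmc genes) and the scaffold and ubiquitin-receptor subunits Psmd1, Psmd2 and Psmd4, and its lid removes ubiquitin through Psmd14. Psme genes encode activators that can bind the core in place of the regulatory particle, and Nfe2l1 encodes the transcription factor that raises the production of subunits when proteasome activity falls short. In liver and stellate cells, as elsewhere, interferon signalling is known to exchange the constitutive catalytic subunits for those of the immunoproteasome and to raise Psme1 and Psme2.

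RNA was sequenced from rat HSC-T6 cells, an immortalised hepatic stellate cell line labelled WT, exposed for 6 h to HMGB1 in the forms labelled [H], [O] or [SO3], or to BSA (3 libraries each). HMGB1 is a chromatin protein that acts as an alarm signal outside the cell, and its redox state is known to change which receptors it engages; the labels do not spell out the bracketed forms. The second set was total liver lysate of male WT mice. It held livers given CCl4, a hepatotoxin, for 4 weeks with [H] HMGB1, [O] HMGB1 or BSA, and livers that regressed for 1 week with [SO3] HMGB1, an HMGB1 antibody (HMGB1 Ab) or BSA (3 libraries each). The third set was total liver lysate of male mice treated for 4 weeks with CCl4 (4 libraries per genotype) or MO, which the labels do not spell out (3 per genotype). Its mice were Hmgb1ΔHepΔMye given Δ[O] HMGB1, Hmgb1ΔHepΔMye given WT HMGB1, or WT. The deposited table gives the Hmgb1ΔHepΔMye groups by codes, which were matched to these labels through the library numbers of the CCl4 livers (1, 3, 4 and 5 with WT HMGB1; 1, 2, 3 and 5 with Δ[O] HMGB1), and the MO livers through the same codes; every WT HMGB1 and Δ[O] HMGB1 value rests on this inferred match. The name of the deposited counts of this set holds AAV8, a viral vector, without saying what it carried. The labels themselves name the deleted gene but not the Cre drivers, the way HMGB1 was supplied or the age of the mice. Nor do they say that each numbered library was a culture or an animal of its own. P-values therefore cover the spread among these libraries, which may be technical.

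Cell libraries held 11752700 to 16981300 gene counts, fibrosis and resolution livers 8355710 to 16327100, and CCl4 and MO livers 22598600 to 39323100 (rounded to the nearest 100), and the proteasome genes took 0.468% to 0.614%, 0.417% to 0.534% and 0.292% to 0.391% of them. In the HSC-T6 libraries the collagen gene Col1a1 reached 27481 to 41851 CPM (counts scaled to a common library size with TMM factors), the hepatocyte gene Ttr was at 0 in all 12 libraries and Alb at 0 in 10, while Lrat, a stellate cell gene of vitamin A storage, was at 0 in all 12. Hmgb1, the deleted gene, was counted in every liver library. It stood at 44.9 to 74.1 CPM in Hmgb1ΔHepΔMye + WT HMGB1 livers and at 61.7 to 92.3 CPM in Hmgb1ΔHepΔMye + Δ[O] HMGB1 livers after CCl4, against 57.2 to 107.1 CPM in WT livers after CCl4. With MO it was at 63.9 to 74.7 CPM in the WT HMGB1 livers and 130.9 to 215.4 CPM in the Δ[O] HMGB1 livers, against 72.8 to 77.3 CPM in WT livers. Whether transcript of the supplied HMGB1 is part of these counts is not given in the sources used here, so the deletion is not checked by them.

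[SO3] HMGB1 was followed by higher transcript levels across most of the proteasome in HSC-T6 cells. Of the 42 tested genes, 27 were higher and 1 was lower than with BSA (edgeR's quasi-likelihood test with Benjamini-Hochberg adjusted p under 0.05), where 31.1% of all 10140 tested genes were higher and 32.2% were lower (63.3% in either direction). Their median log2 fold change was 0.20, against -0.02 over all genes, and 35 of 42 had a positive sign. In 26 of the genes every [SO3] HMGB1 library stood above every BSA library, as it did for 32.1% of all genes. The largest rise was 0.85 and the smallest called one 0.12 on the log2 scale. Of the 28 calls 23 held in every alternative; those of Psma2, Psma7, Psmb3, Psmf1 and Psmg4 did not.

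The lid subunits among the members rose together, with 8 of 8 higher and a median log2 fold change of 0.42. Shfm1, a small lid subunit that the symbol rule left out, was counted among the partners. It was not called (-0.04, adjusted p 0.620), and its groups overlapped. Psmd11, a lid subunit that links lid and base, had 218.1, 216.0 and 221.3 CPM with [SO3] HMGB1, against 133.7, 135.0 and 128.1 CPM with BSA. The libraries of the groups did not overlap, and the log2 fold change was 0.72 (SE 0.04, adjusted p 7.78e-14). Psmd7, the partner of the deubiquitinase in the lid, had 248.2, 245.2 and 242.5 CPM with [SO3] HMGB1 and 154.1, 156.9 and 158.9 CPM with BSA. The log2 fold change of Psmd7 was 0.65 (adjusted p 1.30e-12). Psmd14, the deubiquitinase itself, rose to 92.8, 91.5 and 88.01 CPM with [SO3] HMGB1 against 68.7, 72.9 and 79.5 CPM with BSA (log2 fold change 0.30, adjusted p 7.09e-06). Psmd13 had the smallest rise of the 8 lid members at 0.20.

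The base rose with it. All 3 non-ATPase members were higher, with Psmd1, the larger scaffold, at 292.8, 292.1 and 293.8 CPM with [SO3] HMGB1 and 197.9, 198.4 and 218.2 CPM with BSA (log2 fold change 0.52, adjusted p 6.45e-11). Of the 6 ATPases 5 were higher, led by Psmc2 at 0.40, and Psmc3 was not called at 0.01. Psmd5, a chaperone that holds base ATPases during assembly and is known to restrain the complete proteasome, had the largest rise of all members. It stood at 119.5, 117.5 and 112.7 CPM with [SO3] HMGB1, against 63.9, 61.9 and 69.1 CPM with BSA. The lowest [SO3] HMGB1 library was far above the highest BSA library, and the log2 fold change was 0.85 (SE 0.05, adjusted p 5.83e-14). The other chaperones of the base, Psmd9 and Psmd10, were not called (0.09 and -0.13).

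The core moved less evenly. In the alpha ring 6 of 7 genes were higher. Psma3 led with 29.1, 27.3 and 29.2 CPM with [SO3] HMGB1 against 16.3, 14.7 and 17.7 CPM with BSA, a log2 fold change of 0.82 (adjusted p 2.42e-09). The rat has a near copy of this gene, Psma3l, which held 1 count over all libraries, and the split of reads between the copies is uncertain. In the beta ring only Psmb3 and Psmb2 were higher (0.22 and 0.18), and the ring's median was 0.07. None of the catalytic subunits was called. Psmb5, the chymotrypsin-like site, had 92.5, 89.4 and 79.8 CPM with [SO3] HMGB1 and 80.6, 95.1 and 90.6 CPM with BSA, overlapping groups with a log2 fold change of -0.02 (95% interval -0.15 to 0.10, adjusted p 0.726). Psmb6, the caspase-like site, was at -0.03 (adjusted p 0.728) and Psmb7, the trypsin-like site, at 0.08 (adjusted p 0.179). Psmg4, a chaperone of alpha ring assembly, was the 1 gene lower, with 21.8, 21.2 and 17.4 CPM with [SO3] HMGB1 against 22.7, 25.8 and 23.9 CPM with BSA (-0.26, adjusted p 0.0108), and the other chaperones of the core, Psmg1 and Psmg2, were not called.

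**Figure D1:**
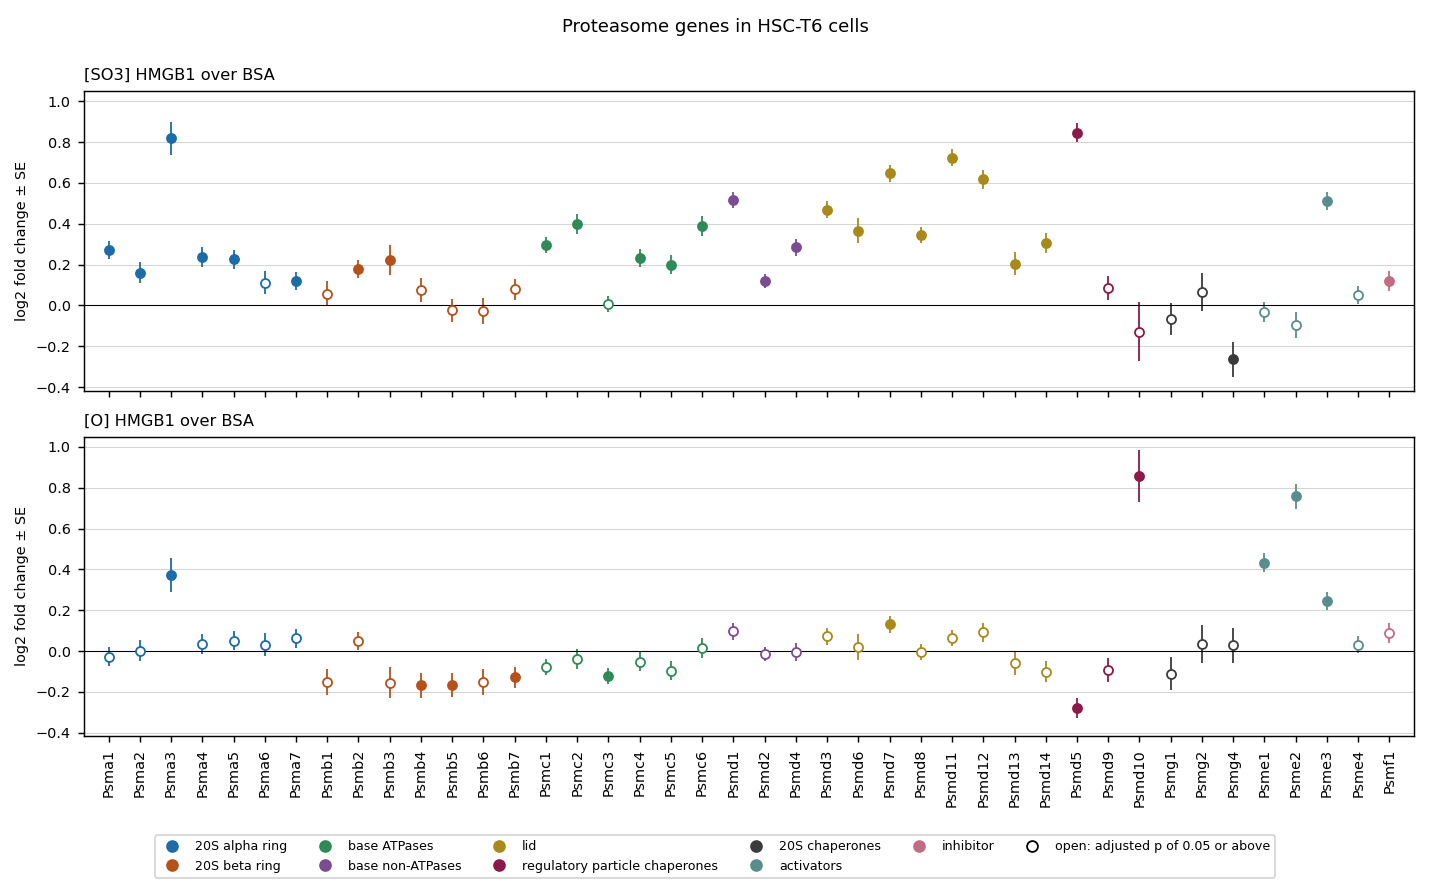
Log2 fold change with its standard error (y axis) of the 42 tested proteasome genes (x axis, coloured by role) in HSC-T6 cells, for [SO3] HMGB1 over BSA (top) and [O] HMGB1 over BSA (bottom); open points had an adjusted p of 0.05 or more. In the top panel the lid and base genes stand above 0 and Psmd5 is highest at 0.85, and in the bottom panel most points lie near 0 while Psmd10, Psme2 and Psme1 stand above the rest.

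Among activators, Psme3, which forms the nuclear activator ring, rose with [SO3] HMGB1 to 162.1, 174.0 and 177.2 CPM, against 121.7, 119.6 and 118.9 CPM with BSA (log2 fold change 0.51, adjusted p 3.08e-10). Psme1, Psme2 and Psme4 were not called (-0.03, -0.10 and 0.05). Psmf1, which encodes an inhibitor of the core, was higher by 0.12 on the log2 scale (adjusted p 0.0348), with all 3 [SO3] HMGB1 libraries above the BSA libraries.

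Most genes of a list of proteasome partners rose too. The list holds receptors, shuttling factors and cofactors, with Shfm1 and Adrm1 of the regulatory particle itself. Of its 19 tested genes 15 were higher and 1 was lower, where 31.1% of all genes were higher and 32.2% were lower. The summed level of the partners was 5767 to 5806 CPM with [SO3] HMGB1 against 4268 to 4479 CPM with BSA. Zfand2a, an arsenite-inducible protein that binds the regulatory particle, had the largest change: 399.6, 429.8 and 451.9 CPM with [SO3] HMGB1, against 82.8, 79.4 and 83.2 CPM with BSA (log2 fold change 2.39, adjusted p 1.23e-22). Nploc4, a cofactor of the unfoldase Vcp, rose by 0.89, Zfand5 by 0.62, Ubqln1, a shuttle for ubiquitinated proteins, by 0.58 and Usp14, the deubiquitinase that docks on the base, by 0.54. Ngly1, the deglycosylating enzyme that activates the Nfe2l1 protein, was lower (-0.25, adjusted p 4.02e-04). Of the immunoproteasome genes 0 of 3 were called. In the same libraries 6 of 6 proliferation genes were lower, at a summed 460.6 to 494.7 CPM with [SO3] HMGB1 against 916.7 to 987.2 CPM with BSA, and 5 of 6 tested stellate cell genes were lower. The part of these shifts in the proteasome values was not tested.

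With [O] HMGB1 fewer members changed, and the activators were among them. Against BSA 6 genes were higher and 5 were lower, where 23.7% of all genes were higher and 20.2% were lower; the share of members called in either direction, 11 of 42, was below the 43.9% of all genes. The median log2 fold change was 0.01 (-0.04 under library totals). Of the activators 3 of 4 were higher. Psme2, which with Psme1 forms the interferon-inducible activator ring, had 112.4, 114.1 and 122.7 CPM with [O] HMGB1, against 63.4, 69.5 and 74.1 CPM with BSA (log2 fold change 0.76, adjusted p 9.10e-10). Psme1 had 139.9, 148.5 and 151.9 CPM with [O] HMGB1 against 103.0, 109.2 and 114.3 CPM with BSA (0.43, adjusted p 4.22e-08). For both genes every [O] HMGB1 library stood above every BSA library. Psme3 rose by 0.25.

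The immunoproteasome genes, which are no members, moved with these activators: 3 of 3 were higher with [O] HMGB1, at a summed 142.9 to 153.5 CPM against 49.7 to 53.5 CPM with BSA, with log2 fold changes of 2.19 for Psmb8, 1.49 for Psmb9 and 1.46 for Psmb10. The constitutive beta ring went the other way in part, with 3 of 7 subunits lower and none higher. Psmb5 was at 75.1, 80.7 and 81.8 CPM with [O] HMGB1 and 80.6, 95.1 and 90.6 CPM with BSA (-0.16, adjusted p 0.0273), and the groups overlapped. Psmb4 (-0.17) and Psmb7 (-0.13, adjusted p 0.0474) were lower as well, and Psmb6 was not called (-0.15, adjusted p 0.0668). None of these 3 calls held in every alternative. The number of members called was 7 without BSA library 2 and 15 without [O] HMGB1 library 3. Negative signs in these subunits were not particular to [O] HMGB1. With [H] HMGB1 over the same BSA libraries, Psmb4, Psmb5, Psmb6 and Psmb7 were at -0.10, -0.13, -0.18 and -0.10, none of them called. There Psmb8, Psmb9 and Psmb10 were at 0.16, -0.22 and -0.16, also not called.

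Chaperones of the regulatory particle split. Psmd10, known as gankyrin, had 9.05, 8.21 and 9.46 CPM with [O] HMGB1 and 4.29, 5.82 and 4.62 CPM with BSA (log2 fold change 0.86, adjusted p 5.05e-06). Psmd5 went down, to 52.7, 53.1 and 54.6 CPM with [O] HMGB1 against 63.9, 61.9 and 69.1 CPM with BSA (-0.28, adjusted p 5.16e-05). The libraries of Psmd10 and of Psmd5 did not overlap between the groups. Psma3 (0.37), the lid subunit Psmd7 (0.13) and the ATPase Psmc3 (-0.12) completed the called genes. The proteasome partners changed in 5 of 19 genes with [O] HMGB1, 4 higher and 1 lower, where 23.7% of all genes were higher and 20.2% were lower.

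With [H] HMGB1 no member was called by edgeR in the model of all groups or by DESeq2, where edgeR called 0.799% of all genes; edgeR with only the groups compared called 2, both lower. At an unadjusted p under 0.05 there were 11 of 42 members, all lower, and 16.9% of all genes in either direction. The signs were uneven, with 3 of 42 positive, and the median was -0.08. In 17 genes every [H] HMGB1 library was below every BSA library, as in 10.7% of all genes. Psmb6 had the largest difference at -0.18 (95% interval -0.32 to -0.05, adjusted p 0.172), from 82.2, 79.8 and 83.2 CPM with [H] HMGB1 and 87.7, 100.2 and 90.8 CPM with BSA. Psmb5 (-0.13), Psmb7 (-0.10) and Psmd14 (-0.12) were not called either.

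The forms differed from each other directly. With [SO3] HMGB1 31 members were higher and 4 were lower than with [O] HMGB1, where 29.1% of all genes were higher and 30.0% were lower (59.2% in either direction). Psmd5 showed the largest rise of the set at 1.13 and Psmd11 rose by 0.66. Among the members all ATPases, base scaffolds and lid subunits were higher. The lid subunit Shfm1, counted among the partners, was not called (0.05, adjusted p 0.539). Psmd10 (-0.98), Psme2 (-0.85), Psme1 (-0.47) and Psmg4 (-0.29) were lower with [SO3] HMGB1. The 2 comparisons with BSA share the BSA libraries. This one reuses their [SO3] and [O] HMGB1 libraries, and the BSA libraries enter it only through the common scaling and model.

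**Figure D2:**
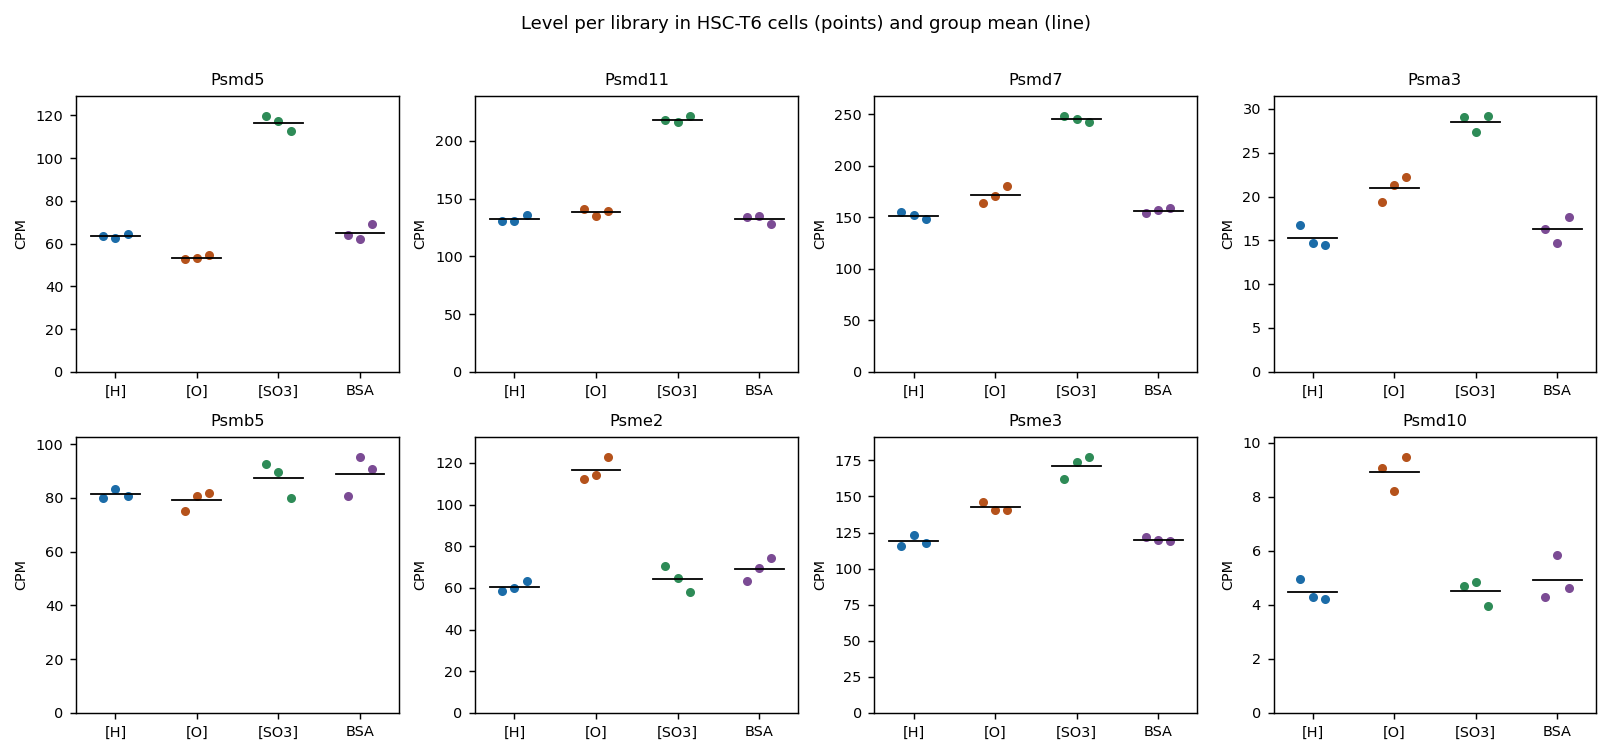
CPM in each HSC-T6 library (y axis) of 8 proteasome genes with [H], [O] or [SO3] HMGB1 or BSA (x axis); points are libraries and lines are group means. Psmd5, Psmd11 and Psmd7 stand apart in the [SO3] HMGB1 libraries, Psme2 and Psmd10 in the [O] HMGB1 libraries, and the Psmb5 points overlap.

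In whole liver, levels were compared per kilobase of exon in the WT livers given MO. The highest single genes were in the core, with levels of 22.5 (Psma3) to 95.4 CPM per kb (Psma6) in the alpha ring (median 33.9) and 29.2 (Psmb3) to 79.9 CPM per kb (Psmb4) in the beta ring (median 45.1), apart from Psma8 at 0.42. ATPases ran from 19.98 (Psmc2) to 64.9 CPM per kb (Psmc5), with the highest median of a role group at 48.7, and the lid from 11.2 (Psmd11) to 38.5 CPM per kb (Psmd8). The chaperones stood at 3.89 (Psmd5) to 7.87 CPM per kb (Psmd9) for the regulatory particle and 4.67 (Psmg3) to 15.1 CPM per kb (Psmg1) for the core, and the inhibitor Psmf1 at 6.61. Nfe2l1 stood at 33.7 CPM per kb. These are levels, with exon lengths of GENCODE vM21, and the transcript forms used in liver can be shorter than the joined exons.

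Some liver libraries stood apart from their groups. Among the CCl4 and MO livers the root mean square deviation from the group mean was 0.494 on the log2 scale in WT CCl4 library 4, 0.557 in Δ[O] HMGB1 CCl4 library 5, 0.590 in WT HMGB1 MO library 3 and 0.479 in Δ[O] HMGB1 MO library 3, against 0.288 to 0.394 in the others. CCl4 libraries numbered 4 or 5 lay on 1 side of the first principal component and those numbered 1 to 3 on the other in all 3 genotypes. Results are therefore also given without them.

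CCl4 was accompanied by lower levels of many proteasome genes relative to the rest of the transcriptome in all 3 genotypes. In WT livers 21 members were lower and 1 was higher after CCl4 than with MO, where 23.5% of all 14129 tested genes were lower and 22.8% were higher. The median was -0.30, against -0.00 over all genes, and in 19 genes every CCl4 library was below every MO library, as in 24.8% of all genes. The direction holds only relative to the other genes: scaled by library totals alone, the median of all genes moved up by 0.46, the members' median turned to 0.16, and 13 members were called higher and 1 lower. In share of all gene counts the members came to 0.326% to 0.377% in WT livers after CCl4 and 0.292% to 0.329% with MO. Reads counted as ambiguous between genes came to 0.579% to 0.635% and 1.31% to 1.66% of gene counts in these WT groups after CCl4 and with MO, and their part in the values was not tested. Without MO library 3 of the WT livers 9 members were called, and without the CCl4 libraries numbered 4 and 5 there were 27.

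Under the TMM scaling 9 of the 21 lower genes in WT livers were core subunits, 5 of 8 alpha and 4 of 7 beta (the alpha median turned to 0.08 under library totals, and the beta median stayed at -0.10). Psma6 (chr12:55384222-55418454, plus strand, GRCm38) had 77.7, 75.7, 76.9 and 79.8 CPM in WT livers after CCl4, against 109.6, 109.3 and 134.3 CPM in WT livers given MO. The groups did not overlap (log2 fold change -0.60, adjusted p 7.99e-05). Psmb7 (chr2:38588036-38644087, minus strand, with 405 bases of exon that overlap Nek6 on the other strand) had 88.1, 80.3, 89.7 and 89.2 CPM after CCl4 and 130.7, 125.1 and 160.4 CPM with MO, again without overlap (-0.68, adjusted p 1.41e-04). The other catalytic subunits were not called, Psmb5 at -0.17 (adjusted p 0.370) and Psmb6 at -0.29 (adjusted p 0.189).

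The regulatory particle was divided in WT livers. Psmd8, a lid subunit needed for the last step of lid assembly in yeast, was the only member higher. The gene lies at chr7:29174188-29180701 on the minus strand. It had 145.0, 172.9, 145.2 and 223.8 CPM after CCl4 against 115.2, 112.7 and 125.2 CPM with MO (0.54, adjusted p 0.00541). Psmd6, Psmd12 and Psmd13 of the same lid were lower (-0.51, -0.42 and -0.30), and Psmd14 was not called (0.08, adjusted p 0.721). Psmd9, a chaperone of the base, had the largest fall of all members, with 28.3, 27.4, 36.9 and 41.6 CPM after CCl4 against 55.3, 53.1 and 62.7 CPM with MO (-0.77, adjusted p 5.49e-05). Psmd8 and Psmd9 were the only WT calls that held in every alternative, scaling by library totals included. An exon of Psmd9 overlaps the opposite-strand gene Gm26745 over 1849 bases, and the strand setting of the counting is not given in the sources used here. The ATPase Psmc1 (-0.34) and the ubiquitin receptor Psmd4 (-0.44) were lower, but had positive signs of 0.12 and 0.025 under library totals.

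Outside the particle, Psmf1, the inhibitor of the core, had 27.0, 22.6, 27.9 and 29.2 CPM in WT livers after CCl4 and 42.6, 37.3 and 47.8 CPM with MO (-0.67, adjusted p 1.04e-04). Psme2 (-0.66), whose near copy Psme2b held 2.02 to 6.48 CPM in mouse livers, and Psme1 (-0.64) were lower, as were the core chaperones Psmg3 (-0.56) and Psmg4 (-0.50). Nfe2l1 (chr11:96817414-96829968, minus strand) had 106.8, 120.0, 114.9 and 139.3 CPM after CCl4, against 197.2, 195.4 and 156.9 CPM with MO. The highest CCl4 library stayed below the lowest MO library (-0.61, SE 0.17, adjusted p 0.00557).

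In Hmgb1ΔHepΔMye + WT HMGB1 livers 30 members were lower and 1 was higher after CCl4, where 24.0% of all genes were lower and 23.3% were higher (47.3% in either direction). The median was -0.59 against -0.03 over all genes, and under library totals it kept its sign at -0.28. All 7 tested beta subunits, 6 of 8 alpha subunits, 5 of 6 ATPases and 4 of 4 core chaperones were lower, each group with a negative median under both scalings. Psmb3, a structural beta subunit at chr11:97703399-97713500 on the plus strand, had 39.9, 41.0, 33.2 and 29.3 CPM after CCl4, against 94.3, 91.2 and 56.0 CPM with MO (-1.17, adjusted p 1.44e-05). The groups did not overlap, and the lowest MO value came from library 3, which stood apart. Psma5 (chr3:108256926-108279974, plus strand) had 30.0, 28.3, 23.8 and 27.2 CPM after CCl4 and 57.2, 60.2 and 45.9 CPM with MO (-0.99, adjusted p 3.90e-06). Psmd4 (chr3:95032694-95042614, minus strand) had 63.4, 67.0, 63.7 and 62.8 CPM after CCl4 and 156.6, 152.3 and 95.7 CPM with MO (-1.07, adjusted p 3.54e-05).

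The catalytic subunits were lower in these livers, with Psmb5 at -0.83, Psmb6 at -0.69 and Psmb7 at -0.75, all called. Psmd14 was lower (-0.64, adjusted p 0.00210), as were Psmd6 (-0.77), Psmc5 (-0.78), Psme2 (-0.87), Psmf1 (-0.55) and Psmd9 (-0.32). Psmg3, a core chaperone, had the largest fall (-1.21), and shares 280 bases of exon with Gm26938 on its own strand. Psmd8 was again the 1 gene higher, with 102.5, 114.2, 139.2 and 147.4 CPM after CCl4 against 102.8, 103.4 and 86.1 CPM with MO (0.37, adjusted p 0.0463), and 1 CCl4 library lay among the MO libraries. Of the 31 calls in this genotype 19 held in every alternative. Psmd8 and Psmd9 lost theirs in several alternatives, the one without a filter on low counts included, and Psmd14 and Psmf1 lost theirs under library totals. Nfe2l1 was not called: it had 106.7, 91.8, 120.6 and 122.8 CPM after CCl4 and 113.0, 105.2 and 158.3 CPM with MO (-0.19, adjusted p 0.379). The count was 33 without MO library 3 of both Hmgb1ΔHepΔMye groups and 35 without the CCl4 libraries numbered 4 and 5.

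In Hmgb1ΔHepΔMye + Δ[O] HMGB1 livers 14 members were lower and 0 were higher after CCl4, where 11.4% of all genes were lower and 12.9% were higher (24.2% in either direction). The median was -0.32 against -0.04 over all genes, and -0.15 under library totals, where 4 members were called lower and 1 higher. The called genes were 6 of 8 alpha subunits, 3 of 7 beta subunits, 3 of 6 ATPases, Psmd4 and Psmd9. Psma5 had 31.2, 32.7, 30.5 and 32.2 CPM after CCl4, against 48.8, 51.4 and 45.3 CPM with MO (-0.62, adjusted p 8.94e-04). Psmd4 had 65.8, 69.1, 69.2 and 85.0 CPM after CCl4 and 108.3, 117.0 and 101.3 CPM with MO (-0.59, adjusted p 0.0115). For both genes the CCl4 libraries lay below the MO libraries without overlap. Psmb3 (-0.51), Psmc5 (-0.38), Psmb7 (-0.39) and Psmd9 (-0.41) were also lower.

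No lid subunit among the members was called in the Δ[O] HMGB1 livers. Psmb5 (-0.33, adjusted p 0.106), Psmb6 (-0.23, adjusted p 0.369) and Psmd14 (-0.37, adjusted p 0.0831) did not pass, and neither did Nfe2l1, with 107.3, 94.9, 102.4 and 153.1 CPM after CCl4 and 123.4, 145.0 and 135.5 CPM with MO (-0.24, adjusted p 0.326). Without MO library 2 of this genotype 6 members were called. Of the calls in this genotype 3 held in every alternative, those of Psma5, Psma6 and Psma7.

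**Figure D3:**
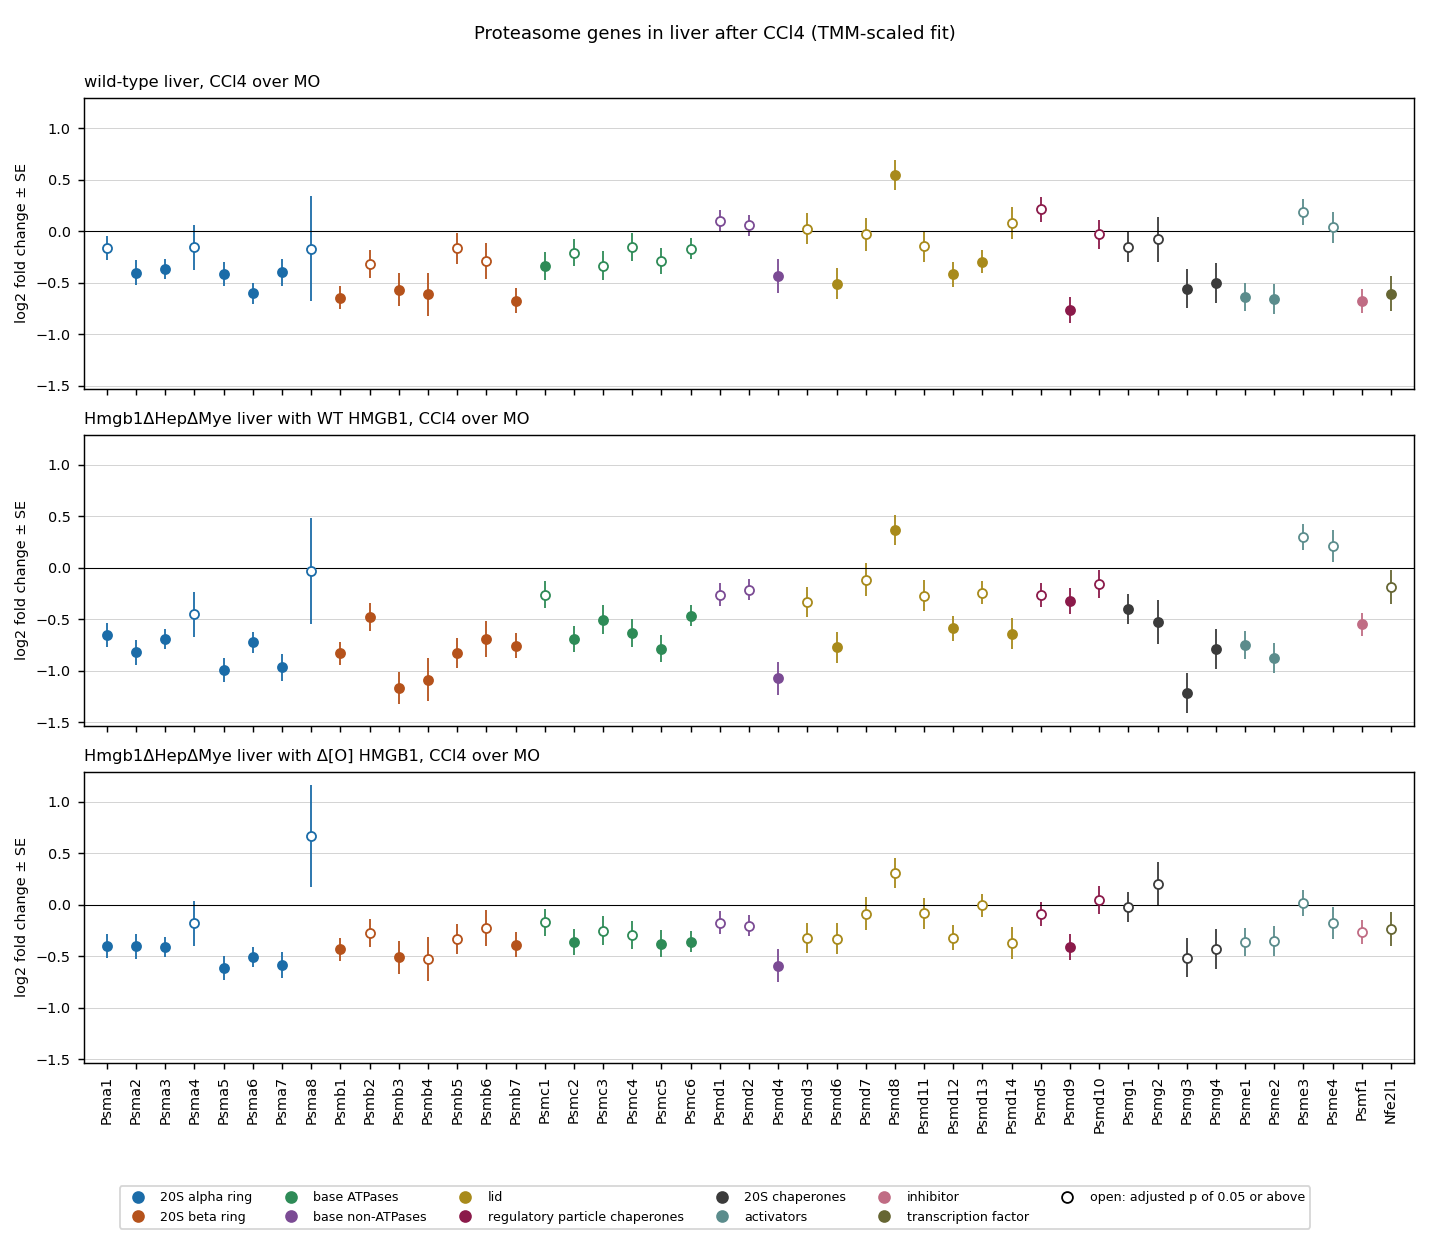
Log2 fold change with its standard error (y axis) of the 45 tested proteasome genes (x axis, coloured by role) after CCl4 over MO in livers of 3 genotypes (panels); open points had an adjusted p of 0.05 or more. Most points lie below 0 in every panel under TMM scaling, furthest in Hmgb1ΔHepΔMye + WT HMGB1 livers with a median of -0.59, and Psmd8 stands above 0; under library totals the WT median turns to 0.16.

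Other cell types and genes moved with CCl4 in the same libraries. Stellate cell genes were higher in 7 of 7 cases in every genotype, at a summed 324.1 to 736.1 CPM after CCl4 against 44.5 to 98.1 CPM with MO in WT livers, and 1386 to 2025 CPM against 79.5 to 110.8 CPM in WT HMGB1 livers. Hepatocyte genes were lower in 4 of 6 cases in WT livers, 3 of 6 in WT HMGB1 livers (1 was higher) and 1 of 6 in Δ[O] HMGB1 livers, and proliferation genes were higher in 4, 6 and 6 of 6. In bulk tissue, fewer cells of a type and less RNA per cell cannot be told apart. The part of these shifts in the proteasome values was not tested. The immunoproteasome genes were lower as well, 3 of 3 in WT livers, at a summed 42.9 to 61.1 CPM after CCl4 against 87.2 to 105.8 CPM with MO, and 2 of 3 in each Hmgb1ΔHepΔMye group. Of 20 partners 6, 10 and 5 were lower in WT, WT HMGB1 and Δ[O] HMGB1 livers, and 2, 0 and 0 were higher. In the same order 23.5%, 24.0% and 11.4% of all genes were lower, and 22.8%, 23.3% and 12.9% were higher. Pomp, which completes the maturation of the core, fell by 0.67, 0.88 and 0.48 on the log2 scale, and Ngly1 fell by 0.57, 0.49 and 0.41. Zfand2a was higher in WT livers (1.19, adjusted p 3.92e-04).

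**Figure D4:**
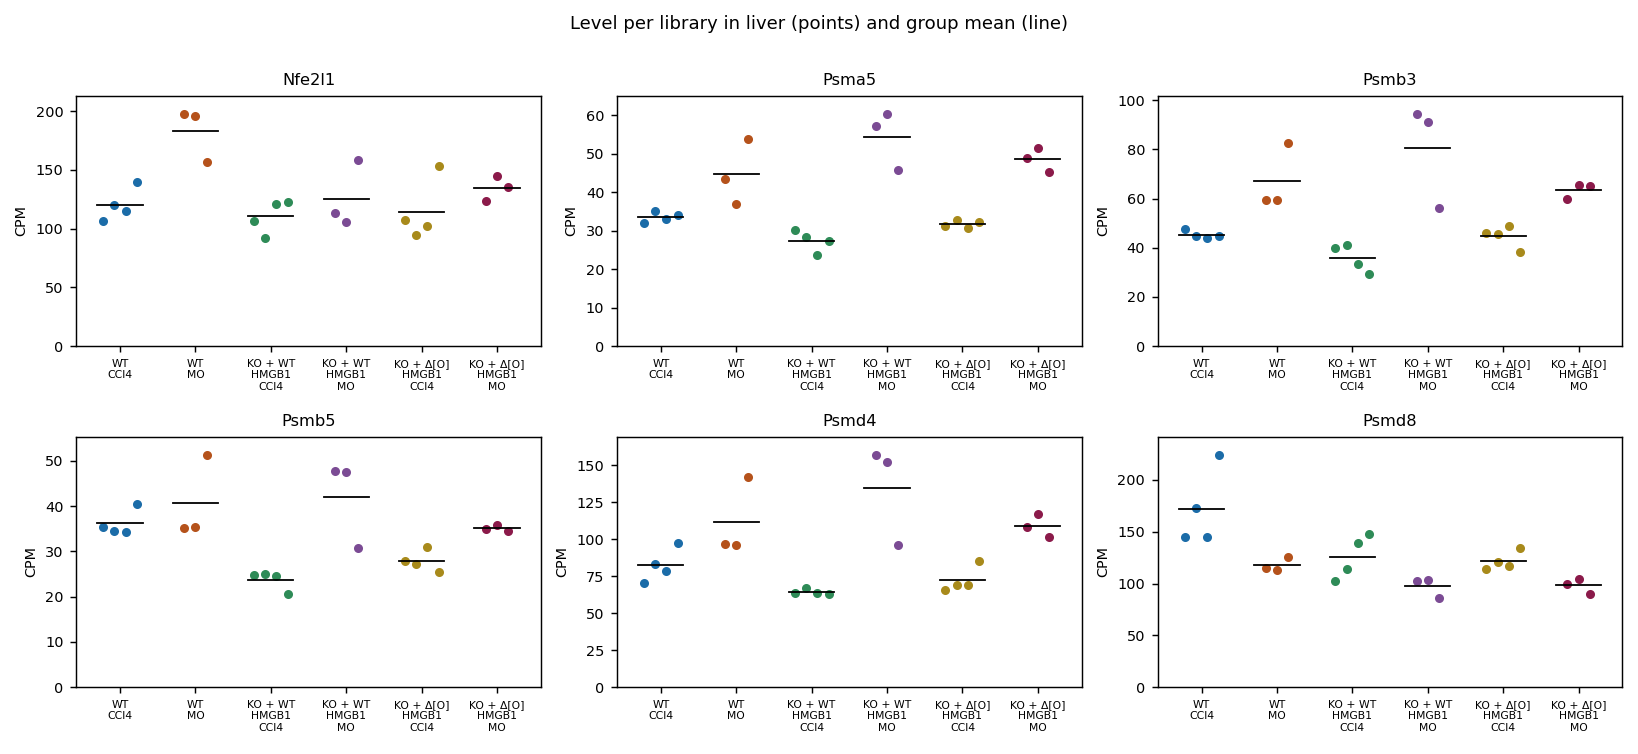
CPM in each library (y axis) of 6 proteasome genes in livers of 3 genotypes after CCl4 or MO (x axis); points are libraries and lines are group means. Psma5, Psmb3 and Psmd4 are lower after CCl4 in every genotype without overlap except Psmd4 of WT livers, Nfe2l1 separates the groups in WT livers, and Psmd8 runs the other way.

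The genotypes were then compared after CCl4; these comparisons share groups with those above and with each other. Hmgb1ΔHepΔMye + WT HMGB1 livers had 7 members lower and 0 higher than WT livers, where 13.0% of all genes were lower and 15.8% were higher (28.8% in either direction). Psmb5 had 24.7, 24.9, 24.6 and 20.5 CPM in WT HMGB1 livers against 35.4, 34.5, 34.3 and 40.4 CPM in WT livers, without overlap (-0.61, adjusted p 0.00239). Psmb5 lies at chr14:54614119-54618022 on the minus strand and shares 109 bases of exon with Mir686. Psmb4 (-0.61), Psmd9 (-0.56), Psmd8 (-0.45), Psma7 (-0.40), Psmc5 (-0.36) and Psma3 (-0.31) were the others. Of the 7 calls 2 held in every alternative, those of Psmd8 and Psmd9, and that of Psmb5 did not. With the library number as a block 11 were called, all lower, and 25 when that model held the CCl4 livers alone, a setting added after the data were seen. Without libraries numbered 4 and 5 it was 2, and by library totals 4 (1 higher, 3 lower). The median was -0.21. Proliferation genes were 221.1 to 357.4 CPM in WT HMGB1 livers against 21.9 to 67.0 CPM in WT livers in sum, and the part of this in the proteasome values was not tested.

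The size of the CCl4 difference itself was tested between these genotypes as an added comparison. It was more negative in Hmgb1ΔHepΔMye + WT HMGB1 than in WT livers for 4 members, where 6.64% of all genes were called in that direction and 6.85% in the other: Psmd14 (-0.71), Psmb5 (-0.66), Psma5 (-0.58) and Psma7 (-0.56). None of the calls held in every alternative, and leaving out 1 library gave 0 (without WT MO library 1) to 13 calls (without WT MO library 3). Nfe2l1 was not called (0.42, adjusted p 0.259).

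Between Δ[O] HMGB1 and WT HMGB1 livers of the Hmgb1ΔHepΔMye mice after CCl4 no member was called by edgeR or DESeq2, where 2.31% of all genes were called (0.113% higher, 2.19% lower), and 7 of 45 had an unadjusted p under 0.05, all higher with Δ[O] HMGB1, near the 15.1% of all genes in either direction. The sign was positive in 44 of 45 members with a median of 0.15. Psmb5 had 27.8, 27.2, 30.9 and 25.5 CPM in Δ[O] HMGB1 livers and 24.7, 24.9, 24.6 and 20.5 CPM in WT HMGB1 livers, which did not overlap, with a difference of 0.24 (adjusted p 0.447). With the library number as a block among the CCl4 livers 3 members were called higher, Psmb4 (0.32), Psmb3 (0.30) and Psmg1 (0.29), each with an adjusted p between 0.033 and 0.042; with the block in the model of all groups none were. For the CCl4 difference itself no member was called between these genotypes by edgeR or DESeq2 (0% of all genes), with 12 of 45 members (14.8% of all genes) at an unadjusted p under 0.05 and a median of 0.28; without WT HMGB1 MO library 3 there were 8 calls.

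Promoters were inspected because many members moved together in these livers and because the element bound by Nfe2l1, the antioxidant response element, has a core written TGACNNNGC. RefSeq promoters of GRCm38.p6, 250 bases before to 50 bases after a start, were matched for 38 members with 45 starts. Searched on both strands, the motif was in 6 of the 45 (13.3%) and in 12.4% of all 32851 promoters. The boxes CCAAT and GGGCGG, whose matches may overlap the first motif in part, were in 37.8% and 55.6% of member promoters and in 37.4% and 35.7% of all. The stretch with TGACNNNGC is shown for 2 catalytic subunits, an ATPase and a lid subunit, 5′ to 3′ on the gene's strand, with the match in capitals (for Psmc6 and Psmd12 it is on the other strand and reads as its reverse complement). They are mouse sequences, and the cell results above are from rat. The positions are chr14:54617996-54618145 for Psmb5 (minus strand), chr11:70525207-70525356 for Psmb6, chr14:45329574-45329723 for Psmc6 and chr11:107479278-107479427 for Psmd12 (plus strand).
Psmb5: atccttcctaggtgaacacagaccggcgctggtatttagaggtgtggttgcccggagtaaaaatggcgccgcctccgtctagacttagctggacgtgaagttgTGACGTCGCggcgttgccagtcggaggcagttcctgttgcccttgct
Psmb6: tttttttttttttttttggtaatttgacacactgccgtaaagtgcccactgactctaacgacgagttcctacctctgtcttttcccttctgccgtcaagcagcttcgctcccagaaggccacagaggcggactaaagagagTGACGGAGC
Psmc6: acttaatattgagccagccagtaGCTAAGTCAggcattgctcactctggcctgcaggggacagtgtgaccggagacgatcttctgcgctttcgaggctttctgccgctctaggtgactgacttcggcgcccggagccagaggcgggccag
Psmd12: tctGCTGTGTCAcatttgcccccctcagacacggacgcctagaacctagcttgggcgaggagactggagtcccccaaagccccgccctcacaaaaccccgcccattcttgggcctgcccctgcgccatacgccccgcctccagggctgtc
The remaining members with the motif were Psmd9 and Psme4. Of the 6 genes, those called lower after CCl4 were Psmd9 and Psmd12 in WT livers, Psmb5, Psmb6, Psmc6, Psmd9 and Psmd12 in WT HMGB1 livers, and Psmc6 and Psmd9 in Δ[O] HMGB1 livers. Of all 45 tested members 21, 30 and 14 were called lower in the same order of genotypes. A link between the motif and the calls was not tested. Psme4 was called in none of these comparisons of CCl4 with MO.

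In the fibrosis and resolution livers library 2 of the fibrosis BSA group stood apart. It deviated from its group by 0.987 on the log2 scale, against 0.396 to 0.693 in the other fibrosis libraries. Library 2 was within that range with [H] HMGB1 (0.563) and with [O] HMGB1 (0.569). All 3 fibrosis libraries numbered 2 lay on 1 side of the first principal component, which held 38.8% of the variance within groups. Members showed it too: Psmd8 had 292.1, 490.4 and 183.6 CPM and Psmd4 143.0, 274.9 and 126.0 CPM in the fibrosis BSA livers. The marker genes were as uneven in that group, with summed proliferation genes at 8.46 to 533.1 CPM and cholangiocyte genes at 42.2 to 538.8 CPM.

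No proteasome gene was called between fibrosis livers given HMGB1 and those given BSA. With [H] HMGB1 and with [O] HMGB1 0 of 45 members were called by edgeR and by DESeq2, with or without the library number as a block, and 0% of all 13487 genes were. At an unadjusted p under 0.05 there was 1 member of 45 in each, Psmg3 with [H] HMGB1 (0.49) and Psmd11 with [O] HMGB1 (-0.65), against 10.7% of all genes with [H] HMGB1 and 5.39% with [O] HMGB1. The medians were 0.12 with [H] HMGB1 and -0.08 with [O] HMGB1, which turned to 0.02 under library totals. Between [O] HMGB1 and [H] HMGB1 the median was -0.21 with 3 of 45 signs positive, and again 0 were called (0% of all genes) with 0 members and 10.5% of all genes at an unadjusted p under 0.05. These comparisons share groups. Psmb5 had 74.8, 72.4 and 56.4 CPM with [O] HMGB1, 82.1, 71.8 and 45.7 CPM with [H] HMGB1 and 69.4, 60.0 and 53.3 CPM with BSA, which overlapped throughout. Nfe2l1 had 229.0, 200.6 and 181.5 CPM with [O] HMGB1, 210.3, 190.1 and 255.7 CPM with [H] HMGB1 and 233.4, 184.2 and 199.6 CPM with BSA.

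At this depth and spread the test had limited reach for genes at large. In counts simulated from these libraries for [O] HMGB1 over BSA, it recovered 13% of genes changed by 1 on the log2 scale. Of those changed by 2 it recovered 81%. The simulation took its spread from the trend over all genes. Members varied less within groups here (median SD 0.213 against 0.368 for all genes), so these shares do not give the reach for members. The same simulation recovered 94% and 100% in the cells and 62% and 90% in WT livers after CCl4.

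In the resolution livers the counts were also 0. With [SO3] HMGB1 0 members were called against BSA by edgeR and DESeq2 (0% of all genes; 1 member and 6.02% of all genes at an unadjusted p under 0.05), and with HMGB1 Ab 0 (0% of all genes; 0 members and 2.07% of all genes at an unadjusted p under 0.05). That member was Psme4, the single-chain activator, with 123.8, 154.4 and 142.5 CPM with [SO3] HMGB1 and 176.9, 181.1 and 176.7 CPM with BSA (-0.35, adjusted p 0.806). Its groups did not overlap. The medians were -0.06 with [SO3] HMGB1 and 0.01 with HMGB1 Ab. Nfe2l1 had 280.1, 255.1 and 245.3 CPM with [SO3] HMGB1 and 250.3, 186.7 and 256.5 CPM with HMGB1 Ab, against 232.7, 238.2 and 238.9 CPM with BSA. The [SO3] HMGB1 libraries lay above the BSA libraries and the HMGB1 Ab libraries spanned them. HMGB1 Ab library 2 had the highest median of members of all 18 libraries, 0.38 above the mean over libraries, and HMGB1 Ab library 1 stood at -0.13.

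Between resolution and fibrosis livers given BSA 1 member was called higher, where 2.40% of all genes were higher and 6.60% were lower. It was Psmg3, a chaperone of alpha ring assembly, with 13.8, 13.7 and 11.9 CPM in resolution livers against 8.97, 6.44 and 7.33 CPM in fibrosis livers (0.79, SE 0.23, adjusted p 0.0429). The groups did not overlap. The call was lost under library totals, without the filter, with only the groups compared and without the fibrosis livers numbered 2. The median of members was 0.20 with 35 of 45 positive, and in 13 every resolution library was above every fibrosis library, as in 18.04% of all genes. Nfe2l1 was not called (0.20). Leaving out 1 library gave 0 (without fibrosis BSA library 2) to 5 calls (without fibrosis BSA library 1). Proliferation genes stood at a summed 12.3 to 15.2 CPM in the resolution livers against 8.46 to 533.1 CPM in the fibrosis livers, with 4 of 6 lower, and 3 of 4 cholangiocyte genes were lower; their part in the result was not tested.

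**Figure D5:**
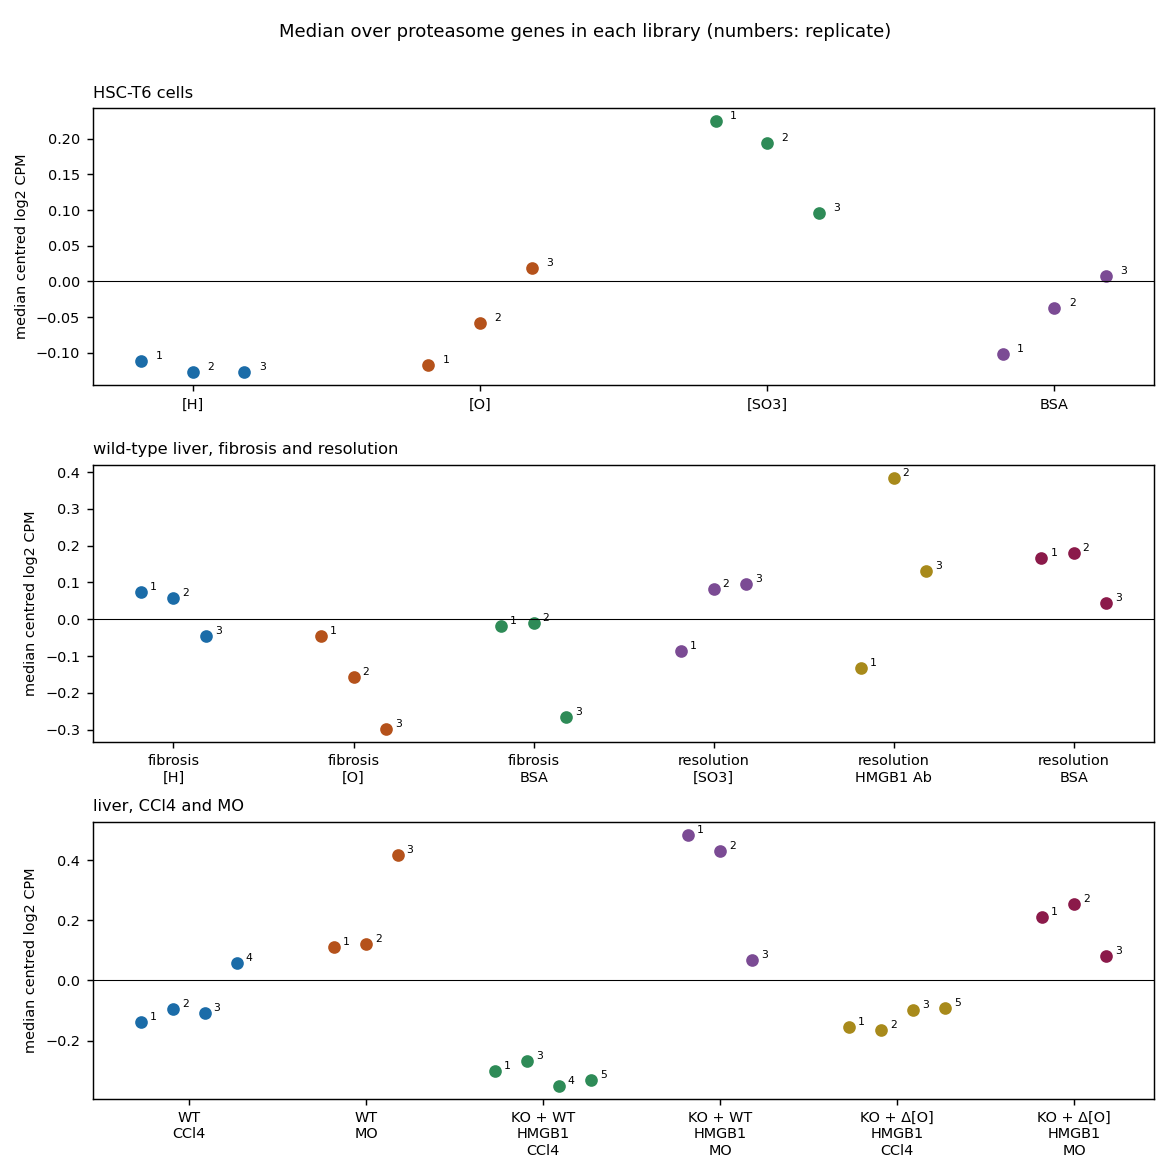
Median over the tested proteasome genes of the log2 CPM, centred on each gene's mean over the libraries of its table (y axis), for each library by group (x axis) in the 3 tables (panels). The [SO3] HMGB1 cells stand highest among the cells, the MO livers above the CCl4 livers of the same genotype under this TMM scaling (the WT difference turns under library totals), and the resolution BSA livers (0.044 to 0.18) above the fibrosis BSA livers (-0.26 to -0.011); HMGB1 Ab library 2 is highest in its table at 0.38.

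Members varied less between replicates than all tested genes, in a comparison not matched for expression level. The median SD within groups, on the log2 scale, was 0.057 for members and 0.081 for all tested genes in the cells, 0.213 and 0.368 in the fibrosis and resolution livers, and 0.179 and 0.252 in the CCl4 and MO livers. The members also deviated together within groups: the median Pearson correlation between pairs of members over libraries, after taking out group means, was 0.50 over 12 cell libraries, 0.41 over 18 and 0.36 over 21 liver libraries, as a description of points that share a library and its scaling. Correlations of other genes were not set beside these. Psmd2, a scaffold of the base, had the smallest SD of the members in the cells (0.027) and in the CCl4 and MO livers (0.10).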

How the data were processed

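RNA was sequenced from rat HSC-T6 cells and from whole mouse liver, with TruSeq Stranded mRNA libraries of RNA isolated by miRNeasy (cells) or RNAspin (liver) kits, per the labels' protocols. The authors deposited whole-number read counts per gene in 3 tables, which hold 51 count columns; 0 columns were left without a sample. The build mm10 is named for every library, the rat ones included, per the submitters' processing notes. Aligner, counter, annotation and strand setting were not given in the sources used here. Reads without a gene, 32.0% to 35.2% of the gene counts in the cells and 5.50% to 8.51% in the CCl4 and MO livers, and ambiguous reads were left out of totals and tests.

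Each table was fitted separately (edgeR 4.0.16, R 4.3.3): filterByExpr (minimum count 10, minimum total 15), TMM factors and 1 robust quasi-likelihood model over all groups of the table, with p-values adjusted over all genes tested (Benjamini-Hochberg, threshold 0.05). All adjusted p-values come from it. CPM are counts scaled to a common library size with TMM factors, and the standard error (SE) is the log2 fold change divided by the root of F. There were 17 comparisons, of which 1 was added after the data were seen. Alternatives were DESeq2 1.42.0, RLE factors, library totals alone, no filter, only the groups compared, the library number as a block, and each library left out. The fit was tested on simulated data. Gene positions and exon lengths came from GENCODE vM21 (GRCm38), and promoters from RefSeq (GRCm38.p6).

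The members and the lists of partners and markers were chosen with earlier results of these data known. Genes are named by 1 rule: Nfe2l1 throughout, the largest rise and the largest fall of each role group in a comparison with calls, members called against most of their role group, the catalytic subunits and Psmd14, and at most 6 partners per table; Psmd7 in the cells and Psma7, Psmd12 and Psmd13, with other members named for their level or for a count of 5 or fewer, were chosen after their values were seen. Libraries with the same number deviated together within the fibrosis livers ([H] HMGB1 and BSA 0.187 to 0.521, [O] HMGB1 and BSA 0.474 to 0.595, [O] and [H] HMGB1 0.274 to 0.708) and within the CCl4 livers (Δ[O] HMGB1 and WT HMGB1 0.108 to 0.261, WT HMGB1 and WT 0.116 to 0.313), as correlations of deviations from group means. The pairing rests on these values, since the labels do not say what a number marks.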

Additional observations from a re-analysis of the deposited data

Results flagged for a closer look

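Among the 54 sets of 4 libraries that were examined, 7 held a library farther from the others than Dixon's critical value of 0.829 for 4 samples allows; chance gives about 1 in 20 such sets. WT CCl4 library 4 was the far library for 3 genes: it had 137.0 CPM of Psmb6, where the others had 92.6 to 96.0, 120.8 CPM of Psmc1, where the others had 88.7 to 94.1, and 55.6 CPM of Psmd6, where the others had 65.8 to 67.4. Δ[O] HMGB1 CCl4 library 5 had 121.6 CPM of Psmc1, where the others had 91.7 to 95.3, and 27.5 CPM of Psmf1, where the others had 32.5 to 33.4. WT HMGB1 CCl4 library 5 had 20.5 CPM of Psmb5, where the others had 24.5 to 24.9. WT HMGB1 CCl4 library 3 had 68.9 CPM of Psma7, where the others had 61.4 to 61.6.

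The CCl4 difference of Hmgb1ΔHepΔMye + WT HMGB1 livers minus that of WT livers was called, by edgeR's test of the difference itself, for Psmd14 (-0.71, adjusted p 0.0349), Psmb5 (-0.66, adjusted p 0.0415), Psma5 (-0.58, adjusted p 0.0277) and Psma7 (-0.56, adjusted p 0.0455).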

How the results depend on the processing

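The values are numbers of members called. Scaled by library totals alone, there were 17 for [O] HMGB1 over BSA in cells (main 11), 0 for resolution over fibrosis livers given BSA (main 1), 14 for CCl4 in WT livers (main 22; Psmc1 at 0.12 and Psmd4 at 0.025 changed sign), 5 in Δ[O] HMGB1 livers (main 14), 4 for WT HMGB1 over WT livers after CCl4 (main 7) and 12 for the difference of CCl4 responses of WT HMGB1 and WT livers (main 4). Without the filter there were 0 for resolution over fibrosis and 2 for that difference. DESeq2 gave 2, 12 and 7 for resolution over fibrosis, WT HMGB1 over WT after CCl4 and that difference. With only the groups compared there were 2 for [H] HMGB1 over BSA in cells (main 0), 0 for resolution over fibrosis and 1 for that difference. Settings added after seeing the data gave 0 for resolution over fibrosis without fibrosis livers numbered 2; 2 for WT HMGB1 over WT after CCl4 and 0 for the difference of responses without CCl4 livers numbered 4 and 5; and 13 for that difference, and 2 for the difference between Δ[O] and WT HMGB1 responses (main 0), without Hmgb1ΔHepΔMye MO livers numbered 3. The cause was not tested.

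With 1 library left out, the numbers ran from 7 to 15 ([O] HMGB1 over BSA, cells), 26 to 32 ([SO3] HMGB1 over BSA), 31 to 37 ([SO3] over [O] HMGB1), 0 to 5 (resolution over fibrosis), 9 to 22, 26 to 31 and 6 to 16 (CCl4 over MO in WT, WT HMGB1 and Δ[O] HMGB1 livers), 5 to 9 (WT HMGB1 over WT after CCl4), 0 to 13 (difference of WT HMGB1 and WT responses) and 0 to 8 (difference of Δ[O] and WT HMGB1 responses), and stayed at 0 in the other 7 comparisons.

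With the library number as a block, WT HMGB1 over WT after CCl4 had 11 in the model of all groups and 25 among the CCl4 livers alone, and Δ[O] HMGB1 over WT HMGB1 after CCl4 had 0 and 3. Where the numbers did not pair libraries, the block gave 28, 35 and 20 for CCl4 over MO in WT, WT HMGB1 and Δ[O] HMGB1 livers, 11, 28, 0 and 35 for the cells ([O], [SO3] and [H] HMGB1 over BSA, [SO3] over [O] HMGB1) and 1 for resolution over fibrosis. Of 72 named results past the test, 37 kept their call in every alternative, 35 lost it in at least 1 and 2 changed direction.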
